A study of Mus musculus with 10 samples.

Results

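A set of 44 genes of DNA replication and mitosis was examined in colon tumors with and without epithelial Wls, the gene of Wntless, a membrane protein that cells need to secrete Wnt ligands. Members were chosen by name for their role in the cell cycle, as a replication class of 25 genes and a mitotic class of 19. Of the 44, 42 were among the 16875 gene names of the expression table, namely 23 replication genes and 19 mitotic genes, and all 42 passed the filter of a mean of at least 0.5 FPKM, a read density scaled to transcript length and to the number of mapped reads. Gins2 and Cdt1 were not analysed here. The rule names genes and uses no measured value, but the set was proposed with earlier results of these tumors known.

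Cells copy their DNA in S phase. Origins are licensed by Cdc6, which helps to load the ring of Mcm proteins, and the ring unwinds DNA once Cdc45 and the GINS proteins have joined it. Polymerases then work on the clamp Pcna, which is opened by replication factor C, and they use nucleotides supplied by ribonucleotide reductase and thymidylate synthase. In mitosis, cyclin B with Cdk1 drives entry, Aurora, Polo and Bub kinases watch over the spindle, and Cdc20 starts the separation of sister chromatids. In the colon these programs run in the crypt base and in tumors, and Wnt signaling is a known driver of crypt cell division, so the question was whether the message of dividing cells differed between tumors with and without Wls.

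Polyadenylated RNA of 10 tumors had been sequenced from stranded libraries, 5 control and 5 Villin-WlscKO. All were macrodissected pieces of colon tumor from C57BL/6 mice aged 6 to 10 weeks at the start, which had been given the carcinogen azoxymethane (AOM) and then 3 cycles of 2% dextran sulfate sodium (DSS) in the drinking water, and tumors were taken 120 days after AOM. Control mice carried Wls flox/flox without Cre. Villin-WlscKO mice carried Villin-Cre ERT2 and Wls flox/flox, so that tamoxifen activates the recombinase in intestinal epithelium and not in stroma or immune cells, and received 5 injections of tamoxifen at 80 mg/kg, starting 30 days before collection. Control tumors are described as free of tamoxifen unless stated otherwise. How many mice gave the tumors is not stated in the sources used here, so n counts tumors. A p-value sets the group difference against the spread between these tumors, not between mice.

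Wls itself lay between 61.3 and 79.9 FPKM in the control tumors and between 2.03 and 11.7 FPKM in the Villin-WlscKO tumors (log2 change -3.59, adjusted p = 0.000337), which matches the labels. The groups also differed in sex, although the study states that females were used by preference. The Y-linked Eif2s3y stood between 30.4 and 46.6 FPKM in controls and at 0.138 FPKM or less in Villin-WlscKO tumors, and Xist stood at 0.420 FPKM or less and at 439 or more, so that genotype, sex and tamoxifen cannot be told apart. All 11 colon epithelial markers were present, with sums of 6724 to 9754 FPKM in control and 8497 to 12170 in Villin-WlscKO tumors, and 1 of 11 passed the test, Krt20. The sum of 6 T cell markers was 4.04 to 9.16 FPKM in control and 9.38 to 20.85 in Villin-WlscKO tumors, with 4 of 6 called higher. Of 5 B and plasma cell markers, 1 was called higher, with sums of 26.6 to 126.7 FPKM and 68.4 to 355 FPKM, and Ms4a1 was listed at 0 in 2 tumors. Of 5 neutrophil markers none was called, with sums of 224.5 to 750.3 FPKM and 579 to 1205 FPKM. The sum of 5 squamous markers was 963 and 1241 FPKM in Villin-WlscKO tumors 2 and 3, against 180.1 or less in the other 8 tumors, where Krt5 was listed at 0 in 1 and Trp63 in 3. Among these markers, Krt19 of the colon epithelial list shares all its values with Krt13 and Krt17, and Krt6a of the squamous list with Krt4. The part of these cell types and of sex in the values below was not tested. In pieces of whole tumor, fewer dividing cells and less message per dividing cell cannot be told apart.

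The promoters of 6 members are shown, searched for the letters by which the cell cycle machinery is known to time such genes. E2F proteins, held back by the retinoblastoma family, drive many S phase genes from sites near their start. Many G2 and mitosis genes carry instead a cell cycle homology region (CHR), read by the MuvB complex, together with CCAAT boxes bound by NF-Y. Each sequence is the 250 bases before the start of the gene in RefSeq (GRCm38.p6), written 5′ to 3′ on the strand of the gene, with every match to the searched letters in capitals. The searched letters were TTTGGCGC, TTTCGCGC, TTTCCCGC and TTTGCCGC for E2F, TTTGAA and TTCGAA for CHR, and CCAAT for the CCAAT box, all on both strands. The Mki67 window lies at chr7:135716380-135716629 on the minus strand, that of Ccnb2 at chr9:70421555-70421804 minus, Ccnb1 at chr13:100786487-100786736 minus, Mcm2 at chr6:88898781-88899030 minus, Mcm5 at chr8:75109259-75109508 plus and Pcna at chr2:132253181-132253430 minus. Ccnb2 and Mcm5 were added after their motifs and values had been seen.
Mki67: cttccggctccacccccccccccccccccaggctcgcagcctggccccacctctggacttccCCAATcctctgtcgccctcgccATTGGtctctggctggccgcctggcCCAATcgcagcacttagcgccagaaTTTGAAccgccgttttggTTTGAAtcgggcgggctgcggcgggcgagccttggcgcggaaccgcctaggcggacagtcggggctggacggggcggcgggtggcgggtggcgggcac
Ccnb2: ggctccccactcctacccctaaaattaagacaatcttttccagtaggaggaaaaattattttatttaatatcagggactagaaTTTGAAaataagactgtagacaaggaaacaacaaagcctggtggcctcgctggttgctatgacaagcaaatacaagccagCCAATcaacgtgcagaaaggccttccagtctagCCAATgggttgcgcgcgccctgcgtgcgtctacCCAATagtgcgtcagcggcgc
Ccnb1: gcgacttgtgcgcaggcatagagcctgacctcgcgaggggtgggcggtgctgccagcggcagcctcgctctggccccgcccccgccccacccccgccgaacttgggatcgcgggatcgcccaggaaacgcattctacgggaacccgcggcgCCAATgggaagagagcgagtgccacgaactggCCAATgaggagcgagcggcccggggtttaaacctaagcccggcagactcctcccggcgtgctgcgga
Mcm2: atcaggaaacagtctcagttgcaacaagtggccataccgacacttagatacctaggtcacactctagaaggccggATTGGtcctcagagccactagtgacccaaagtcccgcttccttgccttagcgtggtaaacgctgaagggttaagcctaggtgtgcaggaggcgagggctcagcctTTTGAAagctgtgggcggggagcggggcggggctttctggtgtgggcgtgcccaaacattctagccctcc
Mcm5: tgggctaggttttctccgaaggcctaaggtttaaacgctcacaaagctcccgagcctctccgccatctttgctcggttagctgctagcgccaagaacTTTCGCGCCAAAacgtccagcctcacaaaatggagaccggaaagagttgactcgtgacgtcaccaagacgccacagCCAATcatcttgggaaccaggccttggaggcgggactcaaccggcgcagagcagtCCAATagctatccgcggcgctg
Pcna: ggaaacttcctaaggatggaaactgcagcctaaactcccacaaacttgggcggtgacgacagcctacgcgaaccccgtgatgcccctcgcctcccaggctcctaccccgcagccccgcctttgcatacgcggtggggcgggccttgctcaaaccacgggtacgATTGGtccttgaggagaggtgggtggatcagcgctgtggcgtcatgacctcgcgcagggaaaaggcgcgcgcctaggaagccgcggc

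In the Mki67 window, 2 CHR matches lie 116 and 98 bases before the start, next to 3 CCAAT boxes. Ccnb2, with 3 CCAAT boxes at 87, 54 and 21 bases before the start, carries a CHR match at 167. Ccnb1 holds 2 CCAAT boxes and none of the E2F or CHR letters. Mcm5 holds overlapping E2F letters on opposite strands, 153 and 149 bases before the start, and Mcm2 a CHR match at 70. Pcna holds a single CCAAT box. No match says only that these letters are not in the window. The wider search below, which reached 50 bases past the start, counted 2 CHR matches for Ccnb2 and 3 CCAAT boxes for Mcm5.

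Promoters were found for 33 of the 42 members, 18 replication and 15 mitotic, and searched from 250 bases before to 50 bases after the start. Mcm4, Gins1, Rfc2, Pole, Ccne2, Ccna2, Aurkb, Tpx2 and Kif20a had no entry. E2F letters were in 7 of 18 replication promoters (38.9%) and 1 of 15 mitotic promoters (6.67%, Cdk1), against 4.32% of 10688 promoters of genes tested and 2.60% of all 27025 promoters. The 7 were Mcm3, Mcm5, Mcm6, Mcm7, Cdc6, Rfc3 and Pola1, so that 4 of them belong to the Mcm ring. CHR letters were in 5 of 18 replication promoters (27.8%) and 12 of 15 mitotic promoters (80%), against 16.9% of genes tested and 21.7% of all promoters. CCAAT boxes were in 13 of 18 (72.2%) and 14 of 15 (93.3%), against 42.5% and 41.1%. Top2a, the topoisomerase that untangles sister chromatids, held the most, with 4 CHR matches and 6 CCAAT boxes. These shares describe sequence and are not evidence of binding in the tumors.

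All 42 members were above 1 FPKM in every tumor. On the FPKM scale, which is per kilobase and lets levels be compared between genes, mean levels over the 10 tumors ran from 4.54 for Pola1, the catalytic subunit of the priming polymerase, and 4.59 for Cdc6 to 82.5 for Cdk1, the kinase of mitotic entry. Below Cdk1 came Top2a (72.8 FPKM), Rfc2 (69.5), Birc5 (58.9), Tyms (54.3) and Ccnb2 (45.3). The classes were alike in level, with a median of 21.05 FPKM over the 23 replication genes and 19.9 FPKM over the 19 mitotic genes. Members lie on 17 chromosomes, and Pola1 is the 1 member on X.

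No member passed the test between the groups. In limma on log2(FPKM + 1), 0 of 42 members had an adjusted p under 0.05, against 10.9% of the 16757 genes tested. At an unadjusted p under 0.05 there was 1 of 42, Ccnb2, against 25.7% of all genes, and in 0 of 42 did the tumor values of the groups not overlap, against 10.1%. The 95% interval of the change lay within 1.5-fold in either direction for 40 of 42 members, against 61.6% of all genes, and within 2-fold for all 42. The median standard error was 0.13 log2 units for the members and for all genes. All genes include levels outside the members' range. For the 10355 genes within that range of mean FPKM, the median standard deviation within a group was 0.18, against 0.22 for the members. Their median absolute change was 0.10, against 0.17 over all genes, and changes ran from -0.32 for Ccne2 to 0.32 for Cenpe.

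**Figure D1:**
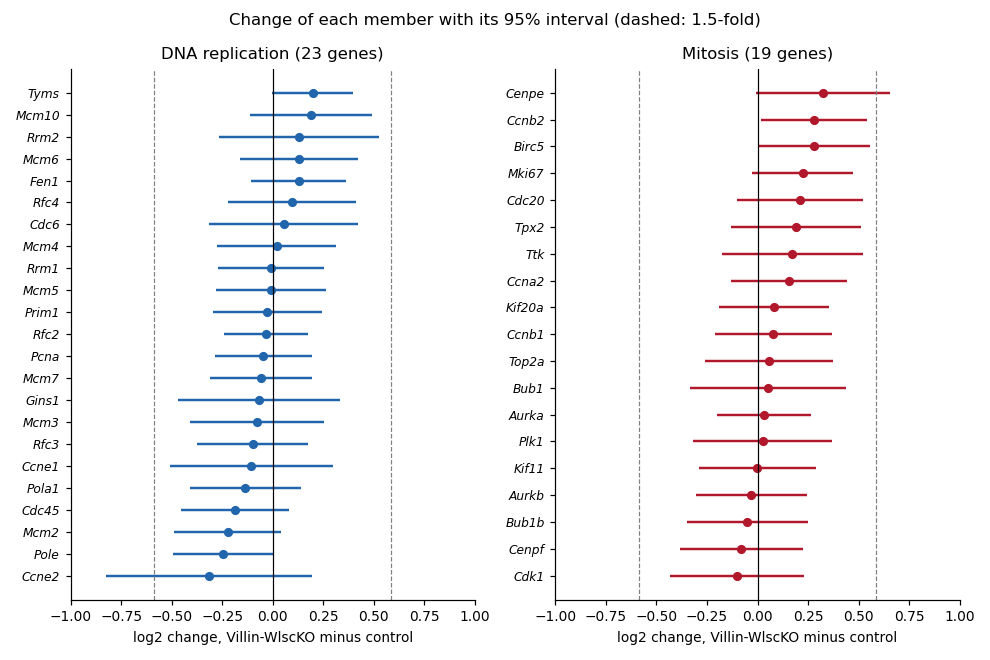
Log2 change of each of the 42 members, Villin-WlscKO minus control, on the horizontal axis, with points for the limma estimate and bars for its 95% interval (n = 5 tumors a group), replication genes at left and mitotic genes at right. Only the intervals of Ccne2 and Cenpe cross a dashed line at 1.5-fold, and only that of Ccnb2 leaves out 0.

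The replication class and the mitotic class leaned to opposite sides of 0 by small amounts. Of the 23 replication genes, 8 had a change above 0 and 15 below, with a median of -0.03. Of the 19 mitotic genes, 14 were above 0 and 5 below, with a median of 0.08, while the median over all genes was 0.01. Members moved together from tumor to tumor, as given below, so these are not counts of independent genes. By role, the medians were -0.03 for licensing and helicase, -0.04 for clamp, polymerase and primase, 0.13 for nucleotide supply and -0.21 for the E cyclins, and then 0.14 for Mki67 and Top2a, 0.16 for mitotic cyclins with Cdk1 and Cdc20, 0.03 for mitotic kinases with Birc5, and 0.08 for spindle and kinetochore genes. Scaling set these signs in part. When all tumors were brought to an equal FPKM sum, the all-gene median moved to 0.10, the replication median to 0.07 and the mitotic median to 0.17, while against the all-gene median they went from -0.04 to -0.03 and from 0.07 to 0.07. Leaving out control tumor 3, control tumor 4 or Villin-WlscKO tumor 3 also put the replication median above 0 (0.03, 0.0030 and 0.04). The mitotic median stayed above 0 but shrank to 0.0093 without control tumor 2, just under the all-gene median of 0.0113, to 0.02 without control tumor 1 and to 0.04 without Villin-WlscKO tumor 5. Its lean therefore rests in part on these tumors.

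**Figure D2:**
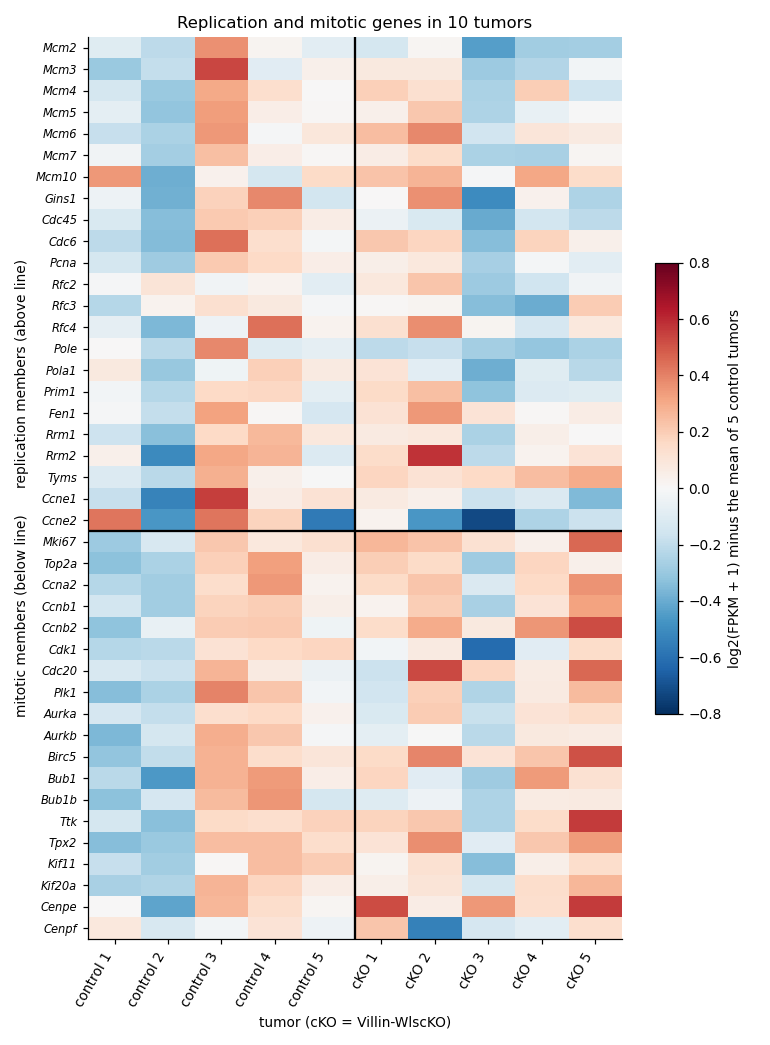
Log2(FPKM + 1) of each member in each tumor minus the mean of the 5 control tumors (color, red above and blue below), with members in rows and tumors in columns. Control tumors 1 and 2 and Villin-WlscKO tumor 3 are blue over most rows and the other 7 tumors are red over more rows than not, so that each group holds both kinds.

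Members moved together from tumor to tumor within each group. The median deviation of the 23 replication genes from their control means was -0.08, -0.29, 0.29, 0.08 and 0.0023 in control tumors 1 to 5. In Villin-WlscKO tumors 1 to 5 it was 0.08, 0.13, -0.27, -0.10 and -0.02. Control tumor 3 was the highest control for 15 of 23 replication genes and control tumor 2 the lowest for 19, and Villin-WlscKO tumor 3 was the lowest of its group for 16. For the 19 mitotic genes the median deviation was -0.23, -0.24, 0.21, 0.20 and 0.05 in controls and 0.11, 0.19, -0.18, 0.11 and 0.26 in Villin-WlscKO tumors. Villin-WlscKO tumor 3 was lowest of its group for 15 of 19 mitotic genes, Villin-WlscKO tumor 5 highest for 12, and control tumors 1 and 2 lowest for 10 and 9. Between the lowest and the highest control tumor these medians spanned 1.496-fold for replication and 1.37-fold for mitosis. Tumors 2 and 3 of the Villin-WlscKO group, which share the high squamous sums, stood apart from each other, with tumor 2 the highest of its group for 14 of 23 replication genes.

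**Figure D3:**
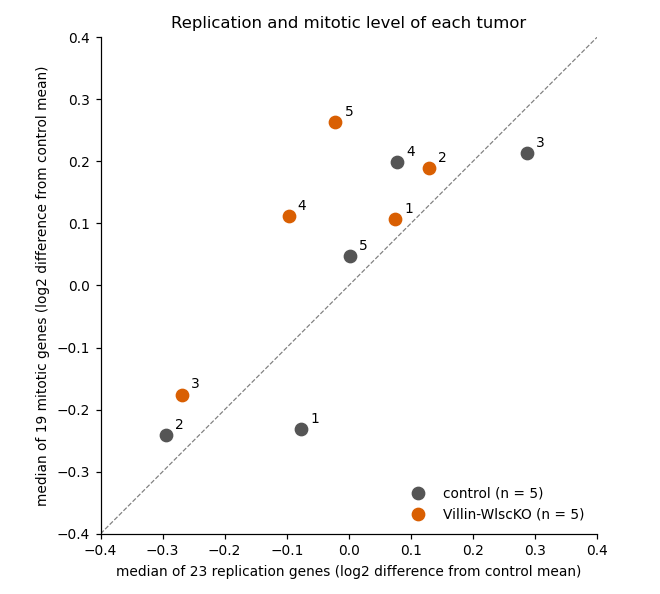
Each point is a tumor, with the median deviation of the 23 replication genes on the horizontal axis and of the 19 mitotic genes on the vertical axis, both in log2 units from the control mean, and the dashed line marks equal values. All 5 Villin-WlscKO tumors lie above the line, by 0.03 to 0.28, as do 3 of the 5 controls, and the groups overlap along both axes.

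The mitotic median minus the replication median was -0.15, 0.05, -0.07, 0.12 and 0.05 in control tumors 1 to 5 (mean -0.0016 ± 0.11, SD, n = 5). It was 0.03, 0.06, 0.09, 0.21 and 0.28 in Villin-WlscKO tumors 1 to 5 (mean 0.14 ± 0.11, SD, n = 5). It was above 0 in 5 of 5 Villin-WlscKO and 3 of 5 control tumors, and the ranges overlapped. No p is given for it, since the set was proposed with results of these tumors known. The class medians of the change kept this order, mitotic above replication, in all 23 alternative settings, by 0.06 to 0.17. These settings reuse the same tumors, and those that alter only the variance model cannot move the medians. The count of settings is therefore not independent support for the order.

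The median standard deviation within a group was 0.22 log2 units over the members and 0.21 over all genes. Over the 10355 genes within the members' range of mean FPKM it was 0.18. When the median of its class was subtracted from each tumor, the median standard deviation went from 0.20 to 0.12 for the replication genes and from 0.22 to 0.11 for the mitotic genes. It became smaller for 22 of 23 and 18 of 19 members. Each member is part of the median it was set against. With the median of all members subtracted instead, the median standard deviation of the members went from 0.22 to 0.14. That step made the standard deviation smaller for 39 of 42 members and for 14.0% of all genes. Ccne2 had the widest spread (0.40) and Tyms the narrowest (0.14).

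Among licensing and helicase genes, Mcm2, a subunit of the Mcm ring (chr6:88883474-88898780, minus strand), was the one with the largest change. It stood at 27.8, 25.6, 38.7, 30.2 and 28.0 FPKM in control tumors 1 to 5 and at 26.9, 30.04, 21.6, 24.4 and 24.4 FPKM in Villin-WlscKO tumors 1 to 5. Villin-WlscKO tumors 3, 4 and 5 lay below every control, and tumors 1 and 2 inside the control range. The means were 30.03 ± 5.09 and 25.5 ± 3.17 FPKM (SD, n = 5 each), a log2 change of -0.22 ± 0.12 (SE) with a limma adjusted p of 0.27. Mcm5, another ring subunit (chr8:75109569-75128439, plus), had the smallest change. Its values were 20.2, 17.0, 27.2, 22.2 and 21.5 FPKM in controls and 22.0, 25.0, 17.8, 20.4 and 21.3 FPKM in Villin-WlscKO tumors, all of the latter inside the control range (-0.01 ± 0.12, adjusted p = 0.98). The other 8 genes of this role, Mcm3, Mcm4, Mcm6, Mcm7, Mcm10, Gins1, Cdc45 and Cdc6, lay between -0.19 for Cdc45 and 0.19 for Mcm10, and Mcm7 shares all its values with 2 microRNA genes in its intron, Mir93 and Mir25.

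Pcna, the sliding clamp (chr2:132249162-132253314, minus), is a proliferation marker. It stood at 34.4, 31.1, 44.2, 42.6 and 39.5 FPKM in controls and at 39.4, 40.4, 31.4, 37.7 and 35.9 FPKM in Villin-WlscKO tumors. Every Villin-WlscKO tumor lay inside the control range. The means were 38.4 ± 5.51 and 37.0 ± 3.54 FPKM, a ratio of 0.968 with a 95% interval of 0.820 to 1.14 (adjusted p = 0.83; two-sided exact permutation p = 0.690, adjusted over 2 genes 0.690). Pcna has 2 named pseudogenes, with which reads could be shared. The study stained the PCNA protein in tumors of this model. It reported more positive cells in Villin-WlscKO tumors at the same time after tamoxifen as here. The Pcna message showed no clear rise. A share of stained cells and the message of whole tumor pieces are different measures, and the reason for the difference was not tested.

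Pole, the catalytic subunit of the leading strand polymerase (chr5:110286306-110337474, plus), had the largest change of its role. It stood at 5.92, 4.96, 8.01, 5.43 and 5.58 FPKM in controls and at 4.98, 5.07, 4.73, 4.57 and 4.81 FPKM in Villin-WlscKO tumors. Of the controls, 4 lay above every Villin-WlscKO tumor, control 3 by the most, and control tumor 2 lay among them (-0.25 ± 0.11, adjusted p = 0.20). Prim1, the catalytic subunit of primase (chr10:128015168-128030037, plus), read 14.97, 12.8, 17.1, 17.2 and 14.4 FPKM in controls and 17.1, 18.1, 11.9, 14.0 and 14.2 FPKM in Villin-WlscKO tumors, which reached beyond the controls at both ends (-0.03 ± 0.12, adjusted p = 0.93). The other members here, the clamp loader subunits Rfc2, Rfc3 and Rfc4, the polymerase subunit Pola1 and the flap endonuclease Fen1, lay between -0.14 for Pola1 and 0.13 for Fen1.

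Tyms, thymidylate synthase (chr5:30058202-30073617, minus), stood at 46.5, 43.1, 61.6, 51.9 and 50.3 FPKM in controls and at 56.7, 54.6, 56.3, 59.8 and 62.0 FPKM in Villin-WlscKO tumors. Control tumor 3 alone lay inside the Villin-WlscKO range, and the other 4 controls lay below every Villin-WlscKO tumor. The means were 50.7 ± 6.98 and 57.9 ± 2.99 FPKM, a ratio of 1.15 with a 95% interval of 0.998 to 1.32 (adjusted p = 0.20). Without control tumor 3 the change was 0.27 with an adjusted p of 0.041, the single case in 23 alternative settings in which a member passed the threshold. Tyms has 1 named pseudogene. The ribonucleotide reductase subunits showed smaller differences, Rrm2 0.13 and Rrm1 -0.01. Rrm1 (chr7:102441695-102469771, plus) read 29.6, 26.1, 37.3, 39.9 and 35.2 FPKM in controls and 34.9, 35.3, 27.8, 34.4 and 33.3 FPKM in Villin-WlscKO tumors, all inside the control range.

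The E cyclins open S phase with Cdk2. Ccne2 (chr4:11191351-11204779, plus) stood at 10.5, 5.17, 10.5, 8.68 and 4.76 FPKM in controls and at 7.70, 5.18, 4.17, 6.19 and 6.58 FPKM in Villin-WlscKO tumors. Controls 1, 3 and 4 lay above every Villin-WlscKO tumor, and controls 2 and 5 lay near the low end. The change was -0.32 ± 0.23, with a 95% interval from -0.82 to 0.19 (adjusted p = 0.43), the widest interval of the set, and the gene overlaps Ints8 on the other strand. Ccne1 (chr7:38097984-38107534, minus) read 8.44, 6.41, 14.8, 10.2 and 10.6 FPKM in controls and 10.3, 10.1, 8.55, 8.91 and 7.42 FPKM in Villin-WlscKO tumors, with the latter inside the control range (-0.11 ± 0.18, adjusted p = 0.77).

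**Figure D4:**
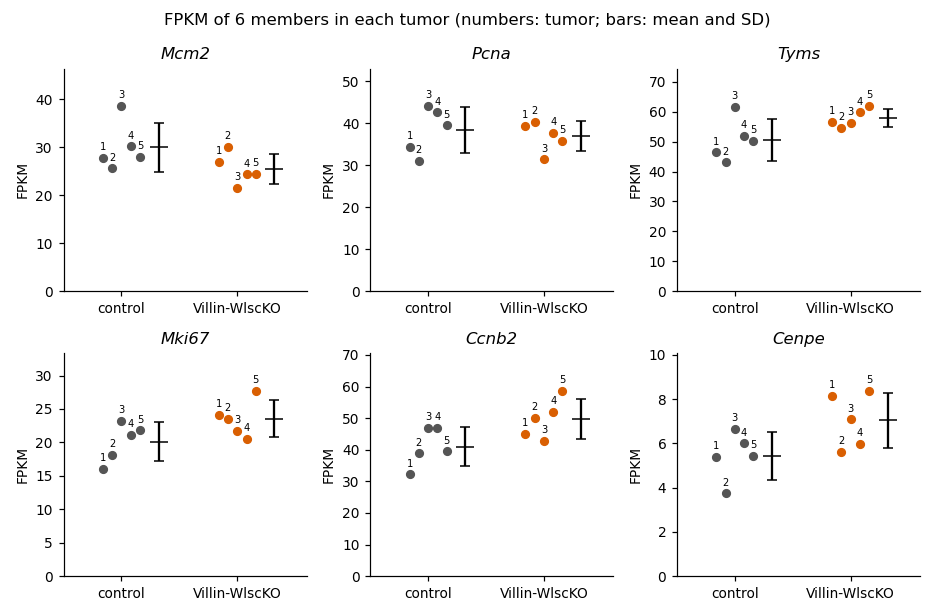
FPKM of Mcm2, Pcna, Tyms, Mki67, Ccnb2 and Cenpe in each tumor on linear axes from 0, with points numbered by tumor and bars for the mean and SD of 5 tumors. In every panel the ranges of the groups overlap, and for Ccnb2, Cenpe and Tyms 3 or 4 of the 5 control tumors lie below every Villin-WlscKO tumor.

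Mki67 encodes Ki-67, a protein of cycling cells that coats mitotic chromosomes (chr7:135689784-135716361, minus). The study stained it as well, and reported more Ki67-positive cells in Villin-WlscKO tumors at 30 days. Mki67 message stood at 16.1, 18.1, 23.2, 21.2 and 21.8 FPKM in controls and at 24.2, 23.5, 21.8, 20.5 and 27.8 FPKM in Villin-WlscKO tumors. Villin-WlscKO tumors 1, 2 and 5 lay above every control, and tumors 3 and 4 inside the control range. The means were 20.1 ± 2.92 and 23.6 ± 2.76 FPKM, a ratio of 1.17 with a 95% interval of 0.981 to 1.39 (adjusted p = 0.25; two-sided exact permutation p = 0.103, adjusted over 2 genes 0.206, where the smallest p that the arrangements of the tumors allow is 0.00794). Top2a (chr11:98992943-99024189, minus) read 56.1, 59.0, 80.7, 89.0 and 73.5 FPKM in controls and 81.2, 78.8, 57.7, 79.6 and 72.5 FPKM in Villin-WlscKO tumors, inside the control range (0.06 ± 0.14, adjusted p = 0.85), and it shares all its values with Gm23451.

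Among the mitotic cyclins, Ccnb2, a cyclin B partner of Cdk1 (chr9:70407692-70421547, minus), had the smallest p of the set. It stood at 32.2, 38.9, 46.9, 46.9 and 39.5 FPKM in controls and at 45.0, 50.04, 42.8, 52.1 and 58.7 FPKM in Villin-WlscKO tumors. Villin-WlscKO tumors 2, 4 and 5 lay above every control, and controls 1, 2 and 5 below every Villin-WlscKO tumor. The means were 40.9 ± 6.18 and 49.7 ± 6.27 FPKM, a ratio of 1.21 with a 95% interval of 1.01 to 1.46 (limma unadjusted p = 0.0389, adjusted p = 0.17), so that it did not pass the threshold. Its sister Ccnb1 (chr13:100778650-100786570, minus) read 8.66, 7.83, 11.1, 11.3 and 10.1 FPKM in controls and 9.90, 11.2, 7.96, 10.6 and 12.4 FPKM in Villin-WlscKO tumors, with 1 tumor above the control range (0.08 ± 0.13, adjusted p = 0.77). Both cyclins have 1 named pseudogene. Cyclin A gene Ccna2 (0.16), Cdc20, the activator of the anaphase-promoting complex (0.21), and Cdk1 (-0.10) did not pass the test either.

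Birc5, survivin, the subunit that takes Aurora B to centromeres (chr11:117849251-117855743, plus), stood at 42.1, 45.8, 64.1, 58.2 and 56.5 FPKM in controls and at 58.8, 69.5, 56.9, 61.6 and 75.6 FPKM in Villin-WlscKO tumors. Villin-WlscKO tumors 2 and 5 lay above every control, and controls 1, 2 and 5 below every Villin-WlscKO tumor (0.28 ± 0.13, adjusted p = 0.19). Plk1, the Polo-like kinase of mitotic entry and spindle assembly (chr7:122159439-122169873, plus), read 17.3, 18.5, 29.5, 26.1 and 21.9 FPKM in controls and 19.9, 25.5, 18.7, 23.4 and 26.7 FPKM in Villin-WlscKO tumors, all inside the control range (0.03 ± 0.16, adjusted p = 0.95). Aurora kinases Aurka and Aurkb and the spindle checkpoint kinases Bub1, Bub1b and Ttk lay between -0.05 for Bub1b and 0.17 for Ttk.

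Cenpe, the kinetochore motor that carries chromosomes to the spindle equator (chr3:135212537-135273611, plus), had the largest change of all members. It stood at 5.38, 3.74, 6.65, 6.01 and 5.43 FPKM in controls and at 8.13, 5.62, 7.08, 5.99 and 8.38 FPKM in Villin-WlscKO tumors. Villin-WlscKO tumors 1, 3 and 5 lay above every control, and controls 1, 2 and 5 below every Villin-WlscKO tumor. The means were 5.44 ± 1.08 and 7.04 ± 1.24 FPKM, a log2 change of 0.32 ± 0.15 with a 95% interval from -0.01 to 0.65 (adjusted p = 0.20). Kif11, the motor that pushes the spindle poles apart (chr19:37376403-37421859, plus), read 11.5, 10.7, 13.3, 15.9 and 15.4 FPKM in controls and 13.5, 14.5, 10.2, 13.7 and 14.7 FPKM in Villin-WlscKO tumors, with a change of -0.0017 ± 0.13 (adjusted p = 1.00). The other members, the spindle assembly factor Tpx2, the cytokinesis motor Kif20a and the kinetochore protein Cenpf, lay between -0.08 for Cenpf and 0.19 for Tpx2.

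Of 123 further cell cycle genes in 4 lists, 6 passed the threshold, 1 higher and 5 lower, which is 4.88% against 10.9% of all genes. Their median change was 0.01. There was 1 of 35 further replication genes (Rpa1), 1 of 48 further mitosis genes (Mad2l1), 3 of 20 regulators of the E2F, RB and MuvB kind (E2f2, Rbl2, Rbbp4) and 1 of 20 S phase checkpoint and repair genes (Wee1). Of the 123, 8 had an unadjusted p under 0.05, against 25.7% of all genes. The groups did not overlap in 5 of the 123, against 10.1% of all genes. These 5 were Rpa1, Mad2l1, Rbl2, Wee1 and Lin52. Lin52, a MuvB subunit, did not pass the threshold and is named here after its values were seen.

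**Figure D5:**
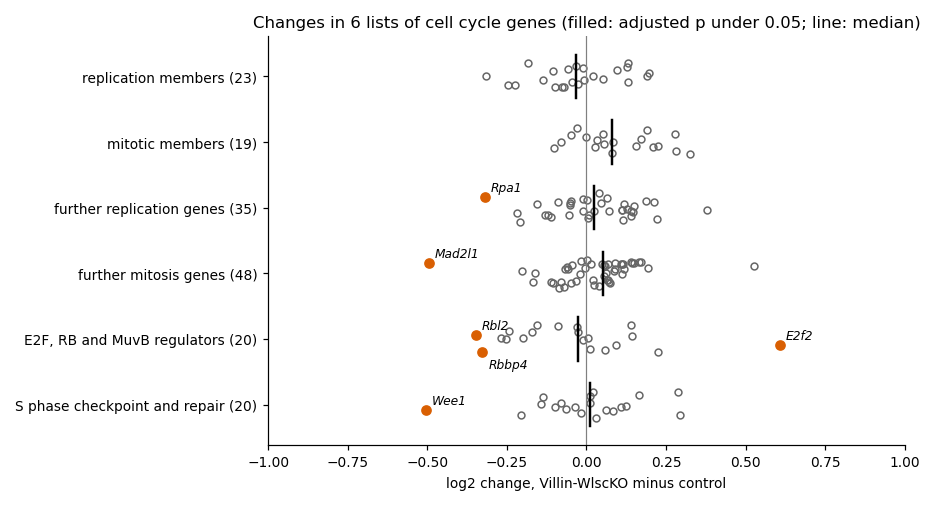
Log2 change, Villin-WlscKO minus control, of every gene in the member classes and in 4 further lists, with open points for genes not past the threshold, filled and named points for those past it, and a line at each median. Filled points occur only in the 4 further lists, 5 of them to the left of 0 and E2f2 to the right, and the medians lie close to 0.

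Wee1, the kinase that holds Cdk1 inactive until DNA is copied (chr7:110122046-110143286, plus), fell. It stood at 8.48, 9.03, 10.2, 9.02 and 10.5 FPKM in controls and at 5.53, 7.84, 5.06, 7.43 and 6.27 FPKM in Villin-WlscKO tumors, without overlap (-0.50 ± 0.12, adjusted p = 0.023). Mad2l1, which encodes the spindle checkpoint protein Mad2 (chr6:66535390-66547220, plus), fell as well, from 59.1, 48.5, 56.6, 70.1 and 60.1 FPKM in controls to 43.8, 44.8, 32.0, 42.1 and 44.6 FPKM, again without overlap (-0.50 ± 0.12, adjusted p = 0.022). Rpa1, the large subunit of the protein that covers single-stranded DNA at the fork (chr11:75298166-75348324, minus), fell from 40.0, 39.3, 45.1, 46.2 and 48.0 FPKM to 37.3, 37.7, 32.7, 30.7 and 35.8 FPKM (-0.32 ± 0.08, adjusted p = 0.033), and it shares all its values with AL603834.1.

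Rbl2, which encodes the retinoblastoma relative p130 (chr8:91070057-91123844, plus), fell without overlap, from 13.4, 13.6, 12.6, 12.1 and 14.8 FPKM to 9.12, 9.67, 10.9, 10.2 and 11.4 FPKM (-0.35 ± 0.08, adjusted p = 0.023). The gene overlaps Aktip on the other strand. Rbbp4, a histone-binding subunit of MuvB and of several chromatin complexes (chr4:129307100-129335370, minus), fell from 172.6, 175.3, 176.7, 200.8 and 185.5 FPKM to 173.5, 155.7, 125.2, 138.8 and 135.4 FPKM (-0.33 ± 0.09, adjusted p = 0.044), where Villin-WlscKO tumor 1 lay among the controls, and it overlaps Sync. E2f2, an activating E2F (chr4:136172394-136196057, plus), was the 1 gene that rose, from 4.63, 4.55, 6.15, 4.44 and 3.63 FPKM to 6.19, 6.04, 8.33, 7.11 and 11.0 FPKM (0.61 ± 0.17, adjusted p = 0.042). Control tumor 3 lay just inside the Villin-WlscKO range.

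These 6 calls were close to the threshold. When all tumors were brought to an equal FPKM sum the 5 lower genes lost their call, with adjusted p from 0.0767 for Mad2l1 to 0.245 for Rbbp4, and E2f2 kept it. Mad2l1 lost its call without control tumor 5 (adjusted p = 0.0516), Rbl2 without control tumor 2 or 5 (0.0559 and 0.0592), and Wee1 without control tumor 5 or Villin-WlscKO tumor 1 or 3 (0.0591, 0.0510 and 0.0503). Rpa1 lost it without control tumor 3, 4 or 5 or Villin-WlscKO tumor 3, 4 or 5 (0.0564 to 0.0816), and E2f2 without control tumor 1, 2, 4 or 5 or Villin-WlscKO tumor 3, 4 or 5 (0.0661 to 0.0959). Rbbp4 lost it without any tumor but Villin-WlscKO tumor 1 (0.0516 to 0.101). The directions did not change in any alternative setting that held the gene.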

How the data were processed

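Total RNA of macrodissected tumors had been made into stranded, poly(A)-selected libraries. The authors deposited 1 FPKM value per gene name and tumor. The submitters' processing notes name FastQC, TopHat2 2.1.1, Cufflinks 2.2.1, Cuffdiff and the build GRCm38.p5. The annotation release, and whether strand was used in counting, are not given in the sources used here. Depth is unknown, since FPKM hold no read numbers, so precision rests on the spread between 5 tumors a group. FPKM summed to 1207683 to 1533885 per tumor, correlations between tumors on the log2 scale were 0.918 to 0.976, and 2419 names share all values with another name.

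Groups were taken from the genotype labels. FPKM were transformed to log2(FPKM + 1), with a pseudocount of 1, and 16757 names with a mean of at least 0.5 FPKM were fitted with limma 3.58.1 (R 4.3.3; eBayes with trend, two-sided, no covariate). P-values were adjusted by Benjamini-Hochberg over all of these, with a threshold of 0.05, and folds are on the log2(FPKM + 1) scale, which understates changes of low genes. Exact permutation tests of Mki67 and Pcna used all 252 arrangements (Python 3.11.15, scipy 1.17.1). The fit was tested on simulated data. The members and lists were chosen with earlier results of these data known. Full values are given for Mki67, Pcna, members past the threshold, and the member with the largest and the smallest absolute change in each role, and further genes are named if past the threshold.

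Positions are from GENCODE M21 (GRCm38) and promoters from RefSeq (GRCm38.p6). Alternatives covered the pseudocount, scaling, filter, variance model, tumor weights, a replicate block, each tumor left out, Villin-WlscKO tumors 2 and 3 left out, identical entries counted once and the sex chromosomes left out. The labels do not say whether the replicate numbers pair the tumors. Deviations from the group means of tumors with the same number correlated at 0.064, -0.087, 0.063, 0.10 and 0.16.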

Additional observations from a re-analysis of the deposited data

Results flagged for a closer look

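In 3 of 86 sets of 5 tumors (each of the 42 members and Wls in each group), 1 tumor stood apart from the others by Dixon's ratio, the gap to the nearest tumor divided by the range of the group, with a critical value of 0.71 at 5 tumors. By chance about 4.3 of 86 sets would do so. Rrm1 in Villin-WlscKO tumor 3 had a ratio of 0.738, at 27.8 FPKM with the next tumor at 33.3. Kif11 in Villin-WlscKO tumor 3 had a ratio of 0.730, at 10.2 FPKM with the next at 13.5. Fen1 in Villin-WlscKO tumor 2 had a ratio of 0.723, at 24.9 FPKM with the next at 20.99. Tumor 3 was also the lowest of its group for 16 of 23 replication and 15 of 19 mitotic genes. The causes were not tested.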

How the results depend on the processing

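In 22 of 23 alternative settings 0 of the members tested passed the threshold, and in the other, without control replicate 3, there was 1 (Tyms). Of the members, 40 were tested at a mean of at least 5 FPKM and with identical entries counted once, 41 with the sex chromosomes left out, and 42 in the other settings. Over the settings that left out 1 tumor, the count of replication members called was 0 to 1. The count of further cell cycle genes called was 0 to 6 over those settings, 1 with all tumors brought to an equal FPKM sum, 2 with a replicate block and 1 without Villin-WlscKO tumors 2 and 3. The count over all genes was 1101 without those tumors, 1229 to 1986 with 1 tumor left out, and 1822 in the fit reported. Called genes were higher in Villin-WlscKO tumors in 56.3% of cases, in 77.1% after rescaling to the same sum and in 44.3% after quantile normalization. Rescaling to the same sum moved the all-gene median from 0.01 to 0.10, and the sign of 14 of 42 uncalled members changed.

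With the replicate block 1627 genes passed, among them 0 members and 2 further genes. The labels do not say whether the numbers pair the tumors, and 2 of 5 control tumors correlated best with their own number. The causes of these shifts were not tested. Depth could not be used to weigh genes, and the groups differ in sex and tamoxifen as well as genotype.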
